A study of Homo sapiens with 9 samples.

Results

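The genes that start and carry out chromosomal DNA replication were followed in AsPC-1 cells, an established human pancreatic adenocarcinoma line, after knockdown of STOML2. The members are a list of 46 gene symbols for the origin recognition complex, helicase loading and activation, the sliding clamp, the replicative polymerases, fragment joining and thymidylate supply. All 46 were measured, each by 1 row, among 17709 rows with 1 gene symbol and 21448 rows in all. The product of STOML2, SLP-2, sits in the inner membrane of mitochondria. The control cells carried the blank pBAsi-hU6 NEO plasmid, and the sh1 and sh2 cells carried the same plasmid with shRNA-1 or shRNA-2 of SLP-2, a short hairpin RNA driven by the U6 promoter. All 3 groups went through Geneticin selection for 3 weeks and were grown from 1 colony each, so a group is 1 clone, with 3 arrays. The labels do not tell whether separate cultures were used for the 3 arrays, so p-values measure only the spread between these arrays, which may be technical, and clone and hairpin cannot be told apart. Both lines are compared with the same 3 control arrays.

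Replication begins when the origin recognition complex, with CDC6 and CDT1, loads the MCM2 to MCM7 ring onto DNA as an inactive helicase. Geminin (GMNN) blocks CDT1 and so prevents a second loading. The kinase CDC7 with its subunit DBF4, together with cyclin-dependent kinases, then recruits CDC45 and the GINS complex to switch the helicase on. Polymerase alpha-primase lays down primers, replication factor C (RFC) loads the clamp PCNA, and polymerases delta and epsilon copy the strands. Many of these genes are targets of the E2F transcription factors and are expressed with the cell cycle. In RNA from a whole culture, fewer cells in S phase and less of the RNA per cell cannot be told apart.

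Values are log2 signals, and the precision is limited by the number of arrays. The signals of arrays within a group correlated across rows at r = 0.994 to 0.996, and those of different groups at 0.982 to 0.988. STOML2 checked the labels, with 13.67 ± 0.03 (SD, n = 3) in the control, 8.32 ± 0.12 in sh1 and 7.73 ± 0.34 in sh2. Of the 9 markers of pancreatic ductal epithelium, 4 passed as higher in sh1 and 3 in sh2, with 1 and 2 lower. KRT8, KRT18 and KRT19 were the brightest, and KRT19 was 16.19 in the control, 14.50 in sh1 and 15.62 in sh2. EPCAM was 8.94, 13.88 and 9.68, and CDH1, which rose in sh1 and fell in sh2, was 8.71, 10.74 and 8.19. CEACAM5 was low (4.88 in the control, where the lower quartile of row means was 4.21). Among markers of other cell types, 2 of 5 fibroblast genes (COL1A1 and COL1A2) fell in both lines, and 2 of 4 leukocyte genes fell in sh1 and 1 of 4 in sh2. In either line 0 of 4 endothelial genes passed (limma). At an unadjusted p under 0.05 these were also 0 and 0, against 29.8% and 27.8% of all rows in sh1 and sh2. COL1A1 was 9.84, 6.65 and 6.36 in control, sh1 and sh2, and PTPRC 4.64, 3.94 and 3.99. The part of these differences in the replication genes was not tested.

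Against the control, replication genes were called in both directions in each line. This was also so within the origin recognition complex, though not after the correction for neighbours given below. A row was called when its adjusted p was under 0.05 (limma, Benjamini-Hochberg over all rows). In sh1, 6 of 46 members rose (ORC2, ORC6, CDC45, RFC5, POLE and TYMS) and 2 fell (ORC3 and GINS1), which is 17.4% of the members against 18.8% of all rows. In sh2, 5 rose (ORC2, CDC45, RFC5, POLE and TYMS) and 7 fell (ORC3, CDC6, MCM2, MCM3, GINS2, GINS4 and TK1), which is 26.1% of the members against 16.3% of all rows. No member had a mean under the lower quartile of row means. Without the rows under it, 12 members were called in sh1 against 26.9% of the 16090 remaining rows, and 14 in sh2 against 23.8%. The shares were not tested. By direction, 9.76% of all rows were higher and 9.0% lower in sh1, and 8.33% and 7.98% in sh2. The median difference of the 46 members was 0.155 in sh1 and -0.07 in sh2, where the median of all rows was 0.02 and 0.02. TK1 in sh2 was the 1 member that passed with a change of at least 2-fold, against 5.59% of all rows in sh1 and 4.50% in sh2. Leaving out 1 array at a time, the number of members called in sh1 fell to 4 without control array 3 and to 4 without sh1 array 3. The number in sh2 fell to 7 without control array 1. A fit with fewer arrays can lose calls in any row, and the shares of all rows called in these fits are not given here. Calls that held in each of the 9 fits with 1 array left out were those of ORC2, RFC5, POLE and TYMS in sh1, and of ORC2, ORC3, CDC6, MCM3, GINS2, TYMS and TK1 in sh2.

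**Figure D1:**
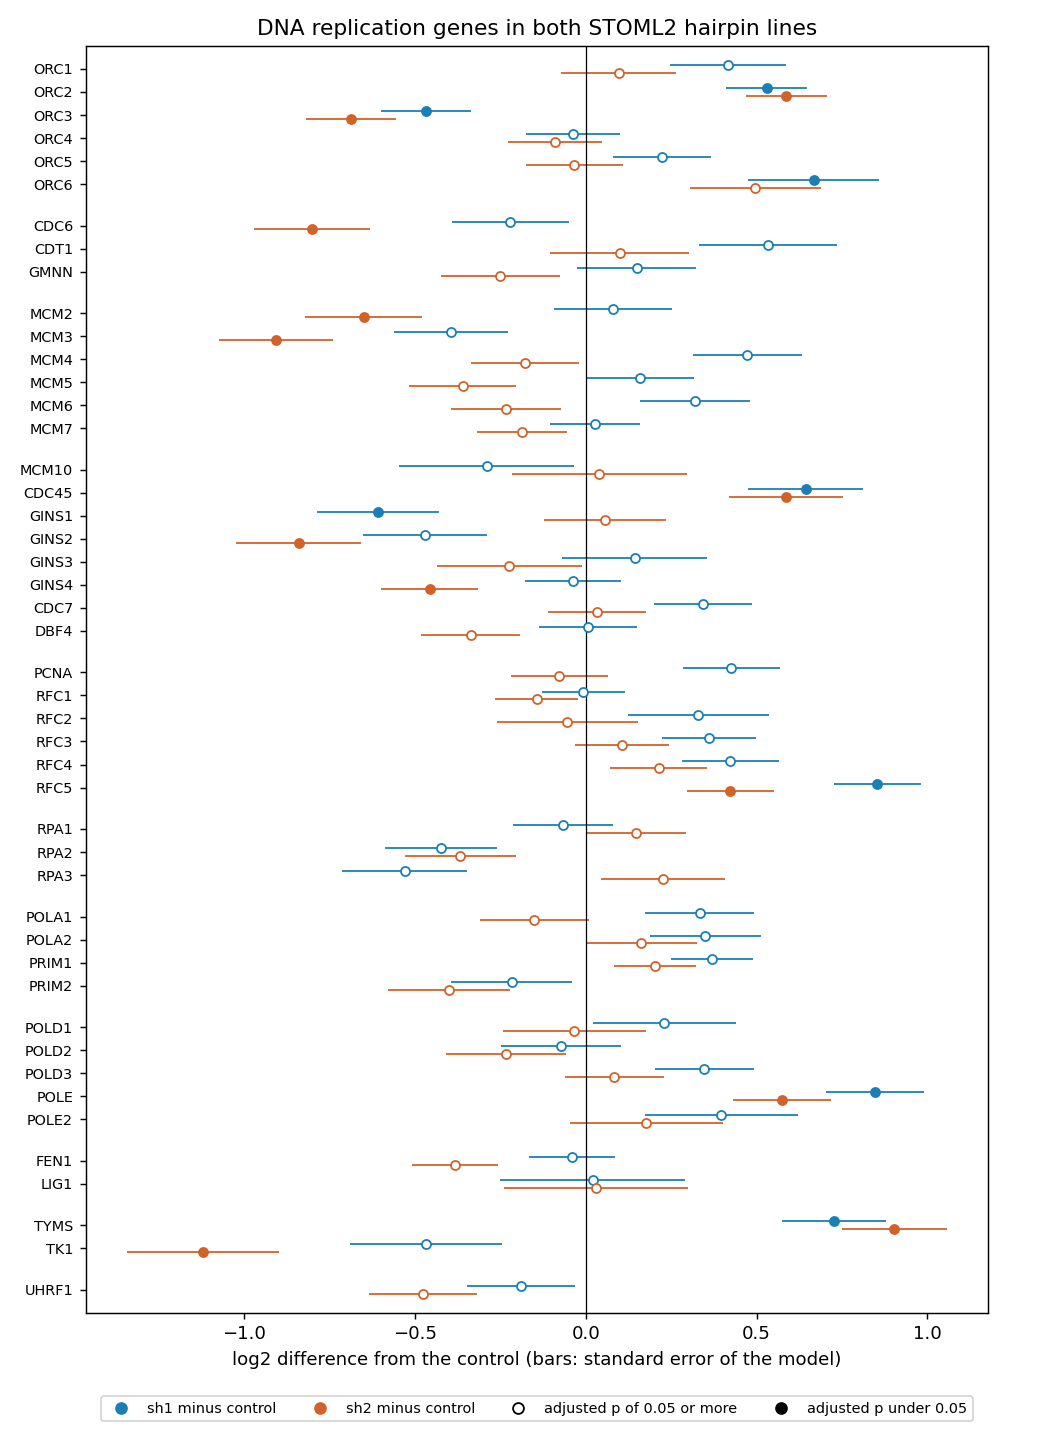
The log2 difference from the control of each of the 46 members in sh1 (blue) and sh2 (orange), with the standard error of the model as bars and filled points for an adjusted p under 0.05. Genes are ordered by their step in replication, and the plot shows TYMS, POLE, RFC5, CDC45 and ORC2 on the right in both lines, with TK1, MCM3, GINS2 and CDC6 farthest to the left in sh2.

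E2F type letters were found before the start of some members that were higher than the control and of some that were lower, in 2 of 6 and 3 of 7 with an entry. The promoters of 5 members that hold such letters are printed, chosen for holding them, and most members that changed against the control hold none. The E2F type match searched was any of TTTCCCGC, TTTCGCGC, TTTGGCGC or TTTGCCGC on either strand, within the 250 bases before the start site in RefSeq (GRCh38.p14). Matches may overlap one another, and capitals mark them. TYMS and POLE were higher than the control in both lines, MCM3 and GINS2 were lower in sh2, and MCM6 was lower in sh2 than in sh1.
TYMS (chr18:657403-657652, plus strand): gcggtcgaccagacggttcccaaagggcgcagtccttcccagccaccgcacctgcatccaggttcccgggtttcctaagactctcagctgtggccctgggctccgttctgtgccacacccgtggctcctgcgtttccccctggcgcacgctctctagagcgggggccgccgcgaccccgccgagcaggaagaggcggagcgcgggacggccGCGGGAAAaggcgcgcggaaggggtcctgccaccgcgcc
POLE (chr12:132687343-132687592, minus strand): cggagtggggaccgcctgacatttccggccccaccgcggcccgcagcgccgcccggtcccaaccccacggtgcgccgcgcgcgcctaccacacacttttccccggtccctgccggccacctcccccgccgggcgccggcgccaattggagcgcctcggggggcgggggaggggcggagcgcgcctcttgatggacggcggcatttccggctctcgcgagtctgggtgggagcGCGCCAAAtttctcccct
MCM3 (chr6:52284743-52284992, minus strand): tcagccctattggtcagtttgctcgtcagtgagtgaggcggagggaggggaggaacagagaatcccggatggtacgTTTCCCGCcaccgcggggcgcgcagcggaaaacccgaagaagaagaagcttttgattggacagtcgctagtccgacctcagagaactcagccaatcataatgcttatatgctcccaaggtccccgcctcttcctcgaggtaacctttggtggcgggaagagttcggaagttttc
GINS2 (chr16:85688955-85689204, minus strand): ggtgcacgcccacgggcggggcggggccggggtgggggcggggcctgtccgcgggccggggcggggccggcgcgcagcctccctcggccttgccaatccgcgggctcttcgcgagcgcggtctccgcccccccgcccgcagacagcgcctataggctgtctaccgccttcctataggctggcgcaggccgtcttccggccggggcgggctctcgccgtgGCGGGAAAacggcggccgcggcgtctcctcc
MCM6 (chr2:135876444-135876693, minus strand): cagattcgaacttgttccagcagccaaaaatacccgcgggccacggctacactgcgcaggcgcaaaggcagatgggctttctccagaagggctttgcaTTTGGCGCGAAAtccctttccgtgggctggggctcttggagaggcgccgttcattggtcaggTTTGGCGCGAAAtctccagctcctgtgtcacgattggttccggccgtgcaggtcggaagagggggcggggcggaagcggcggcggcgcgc
The match lay on the antisense strand from 39 to 32 bases before the start of TYMS, from 18 to 11 before that of POLE and from 31 to 24 before that of GINS2. In MCM3 it lay on the sense strand, from 174 to 167 bases before the start. MCM6 held 4 matches, as 2 overlapping pairs from 152 to 141 and from 90 to 79 bases before the start. Of the 46 members, 40 had an entry in the table (not RPA2, RPA3, POLD3, GINS4, MCM4 and MCM5), and 16 of those 40 held a match at a start site, against 928 of 27305 genes (3.40%) and 2.79% of all start sites of the table. A match is a description of the letters and does not show that E2F binds there. Only these exact letters were searched, so the lack of a match does not show that E2F does not bind. Among members that passed in any of the 3 comparisons, 7 of 15 with an entry held a match, against 9 of 25 that passed in none. The CCAAT box (CCAAT on either strand), the letters bound by NF-Y, was found in 13 of those 15 and in 10 of the 25, against 37.0% of genes in the table, and this split was seen after the calls were known and was not tested.

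**Figure D2:**
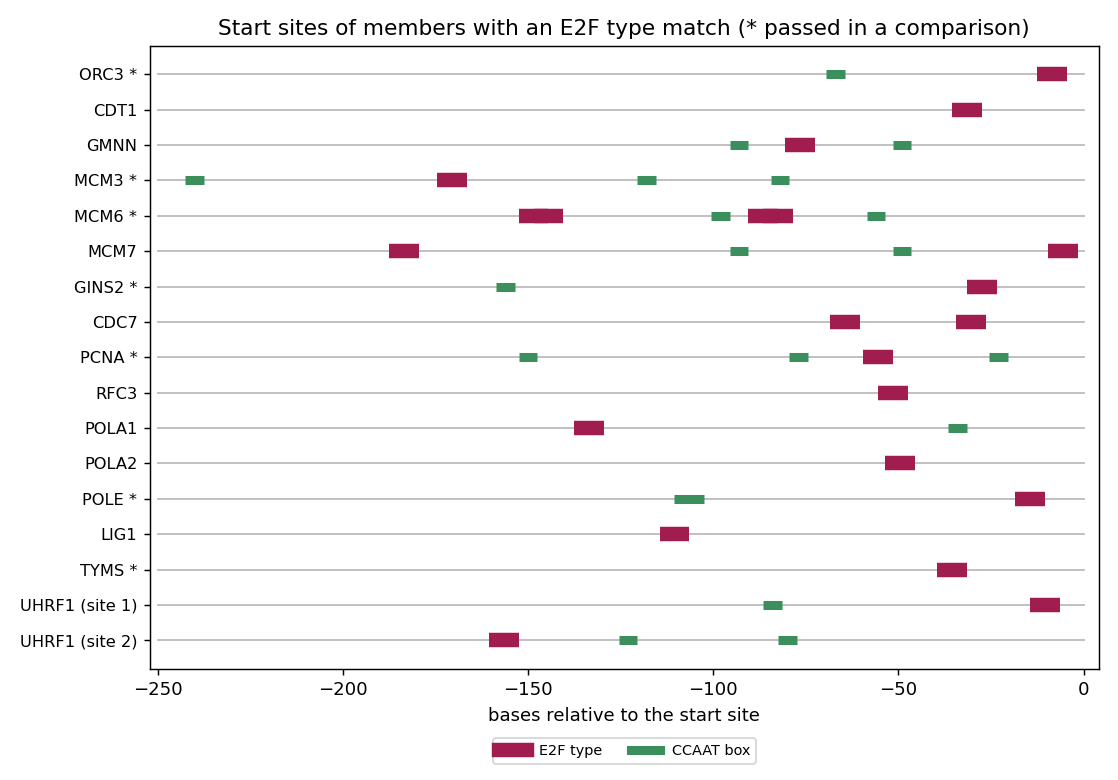
Positions of E2F type matches (dark red) and CCAAT boxes (green) in the 250 bases before the 17 start sites of the 16 members with an E2F type match, in bases relative to the start site at 0. Stars mark members that passed in at least 1 of the 3 comparisons, and the distances of starred and unstarred genes overlap.

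Within the origin recognition complex, which marks the sites where replication can begin, subunits went opposite ways in the same cells. Relative to chromosomal neighbours, given below, neither line kept calls in both directions here. ORC2 read 10.49, 10.60 and 10.53 in the control, 10.99, 11.10 and 11.12 in sh1 and 11.13, 11.23 and 11.02 in sh2. Every array of both lines lay above every control array. The difference was 0.53 ± 0.12 (SE) in sh1 (adjusted p = 0.00812), against 0.59 ± 0.12 (SE) in sh2 (adjusted p = 0.00528). ORC3 read 13.27, 13.37 and 13.48 in the control, 12.87, 12.88 and 12.97 in sh1 and 12.48, 12.74 and 12.84 in sh2. Here the control arrays were the highest and the sh2 arrays the lowest, with no overlap of any groups. Its difference was -0.47 ± 0.13 (SE) in sh1 (adjusted p = 0.0286), against -0.69 ± 0.13 (SE) in sh2 (adjusted p = 0.00395). The sh1 call was lost without control array 2 or 3 or sh1 array 1, 2 or 3 (-0.50 to -0.41, adjusted p = 0.053 to 0.099). ORC6, the smallest subunit, read 6.98, 7.74 and 7.32 in the control, 8.15, 7.82 and 8.07 in sh1 and 7.74, 7.72 and 8.07 in sh2. Its control arrays were the most scattered, and the sh2 arrays overlapped them. ORC6 rose by 0.67 ± 0.19 (SE) in sh1 (adjusted p = 0.031), a call lost without control array 1 or 3 or sh1 array 1 or 3 (0.48 to 0.65, adjusted p = 0.0818 to 0.125), and differed by 0.50 in sh2 (adjusted p = 0.111). ORC1, ORC4 and ORC5 passed in neither line, with differences from -0.09 to 0.42.

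Of the factors that load the helicase, CDC6 fell in sh2. CDC6 read 11.53, 11.55 and 11.34 in the control, 11.33, 11.16 and 11.27 in sh1 and 11.07, 10.39 and 10.56 in sh2. Its sh2 arrays lay below all others, and sh2 array 1 was the closest to the rest. The difference was -0.80 ± 0.17 (SE) in sh2 (adjusted p = 0.00736) and -0.22 ± 0.17 (SE) in sh1 (adjusted p = 0.444). CDT1, the partner of CDC6 in loading, read 5.36, 4.68 and 5.35 in the control, 5.60, 5.56 and 5.83 in sh1 and 5.53, 5.18 and 4.98 in sh2. It was among the 5 members whose mean lay under the median of row means (6.61), with MCM10, GINS4, POLD1 and LIG1. Its sh1 arrays lay above the control and its sh2 arrays overlapped it. CDT1 differed by 0.53 in sh1 (adjusted p = 0.0963), against 0.10 in sh2 (adjusted p = 0.815). GMNN, the inhibitor of CDT1, read 9.59, 9.71 and 9.61 in the control, 9.81, 9.70 and 9.85 in sh1 and 9.29, 9.06 and 9.81 in sh2. Both lines overlapped the control, and the differences were 0.15 (adjusted p = 0.636) and -0.25 (adjusted p = 0.403).

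The 6 subunits of the MCM helicase, which unwinds the DNA ahead of the fork, were lower than the control as means in sh2 and mostly higher in sh1, and 2 of these 12 differences passed. MCM2 and MCM3 fell in sh2, and none passed in sh1 (0 of 6 by limma, 2 of 6 at an unadjusted p under 0.05, against 29.8% of all rows). MCM2 read 9.97, 9.88 and 9.80 in the control, 10.12, 9.60 and 10.17 in sh1 and 9.48, 9.11 and 9.11 in sh2. The sh2 arrays lay below all others, while sh1 and control overlapped. MCM2 changed by -0.65 ± 0.17 (SE) in sh2 (adjusted p = 0.0236) and differed by 0.08 ± 0.17 (SE) in sh1 (adjusted p = 0.82), and the sh2 call was lost without control array 1 or 2 or sh2 array 2 or 3 (-0.65 to -0.59, adjusted p = 0.064 to 0.0839). MCM3 read 11.12, 10.92 and 11.01 in the control, 10.77, 10.28 and 10.82 in sh1 and 10.26, 9.89 and 10.18 in sh2. It was the 1 MCM subunit with a lower mean in both lines, and no sh2 array reached the control. The MCM3 difference was -0.91 ± 0.17 (SE) in sh2 (adjusted p = 0.00304) and -0.39 ± 0.17 (SE) in sh1 (adjusted p = 0.136). MCM4 read 11.05, 10.86 and 11.08 in the control, 11.56, 11.21 and 11.64 in sh1 and 10.93, 10.57 and 10.96 in sh2. All sh1 arrays were above the control, but the difference of 0.47 ± 0.16 (SE) did not pass (adjusted p = 0.0604). MCM5 read 10.75, 10.26 and 10.62 in the control, 10.65, 10.79 and 10.67 in sh1 and 10.38, 10.17 and 10 in sh2. MCM6 read 9.42, 9.61 and 9.48 in the control, 9.96, 9.52 and 9.99 in sh1 and 9.31, 9.05 and 9.45 in sh2. MCM7 read 12.63, 12.67 and 12.80 in the control, 12.85, 12.64 and 12.69 in sh1 and 12.67, 12.33 and 12.54 in sh2. For these 3 subunits both lines overlapped the control, with differences of 0.16, 0.32 and 0.03 in sh1 and -0.36, -0.23 and -0.19 in sh2 (adjusted p = 0.155 or more).

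Helicase activation held calls in both directions. CDC45, which joins the MCM ring to form the active helicase, rose in both lines, whereas subunits of its partner, the GINS complex, fell in one line each. CDC45 read 8.22, 8.24 and 8.09 in the control, 9.03, 8.53 and 8.92 in sh1 and 9.02, 8.77 and 8.52 in sh2. Every knockdown array was above every control array. The difference was 0.64 ± 0.17 (SE) in sh1 (adjusted p = 0.0189), against 0.59 ± 0.17 (SE) in sh2 (adjusted p = 0.0331). The sh1 call was lost without control array 3 or sh1 array 1 or 3 (0.54 to 0.60, adjusted p = 0.0648 to 0.0765), and the sh2 call without control array 1, 2 or 3 or sh2 array 1 or 2 (0.46 to 0.61, adjusted p = 0.0699 to 0.111). GINS1 read 11.09, 10.95 and 10.94 in the control, 10.69, 10.05 and 10.42 in sh1 and 11.25, 10.77 and 11.13 in sh2. Only the sh1 arrays stood apart, below both other groups. It changed by -0.61 ± 0.18 (SE) in sh1 (adjusted p = 0.0346), a call lost without control array 1, 2 or 3 or sh1 array 2 or 3 (-0.63 to -0.44, adjusted p = 0.0708 to 0.122), and differed by 0.06 in sh2 (adjusted p = 0.888). GINS2 read 8.76, 8.35 and 8.50 in the control, 8.06, 7.91 and 8.23 in sh1 and 8.07, 7.42 and 7.60 in sh2. Both lines lay below the control arrays. The GINS2 difference was -0.84 ± 0.18 (SE) in sh2 (adjusted p = 0.00816) and -0.47 ± 0.18 (SE) in sh1 (adjusted p = 0.102). GINS4 read 6.21, 6.28 and 6.27 in the control, 6.21, 6.17 and 6.27 in sh1 and 6.08, 5.73 and 5.58 in sh2. The sh2 arrays lay below all others. The change of -0.46 ± 0.14 (SE) had the highest adjusted p of the sh2 calls (adjusted p = 0.0476) and was lost without control array 1, 2 or 3, sh1 array 1, 2 or 3 or sh2 array 2 or 3 (-0.48 to -0.35, adjusted p = 0.0553 to 0.165). GINS3, MCM10 and the kinase pair CDC7 and DBF4 passed in neither line, with differences from -0.34 to 0.34.

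**Figure D3:**
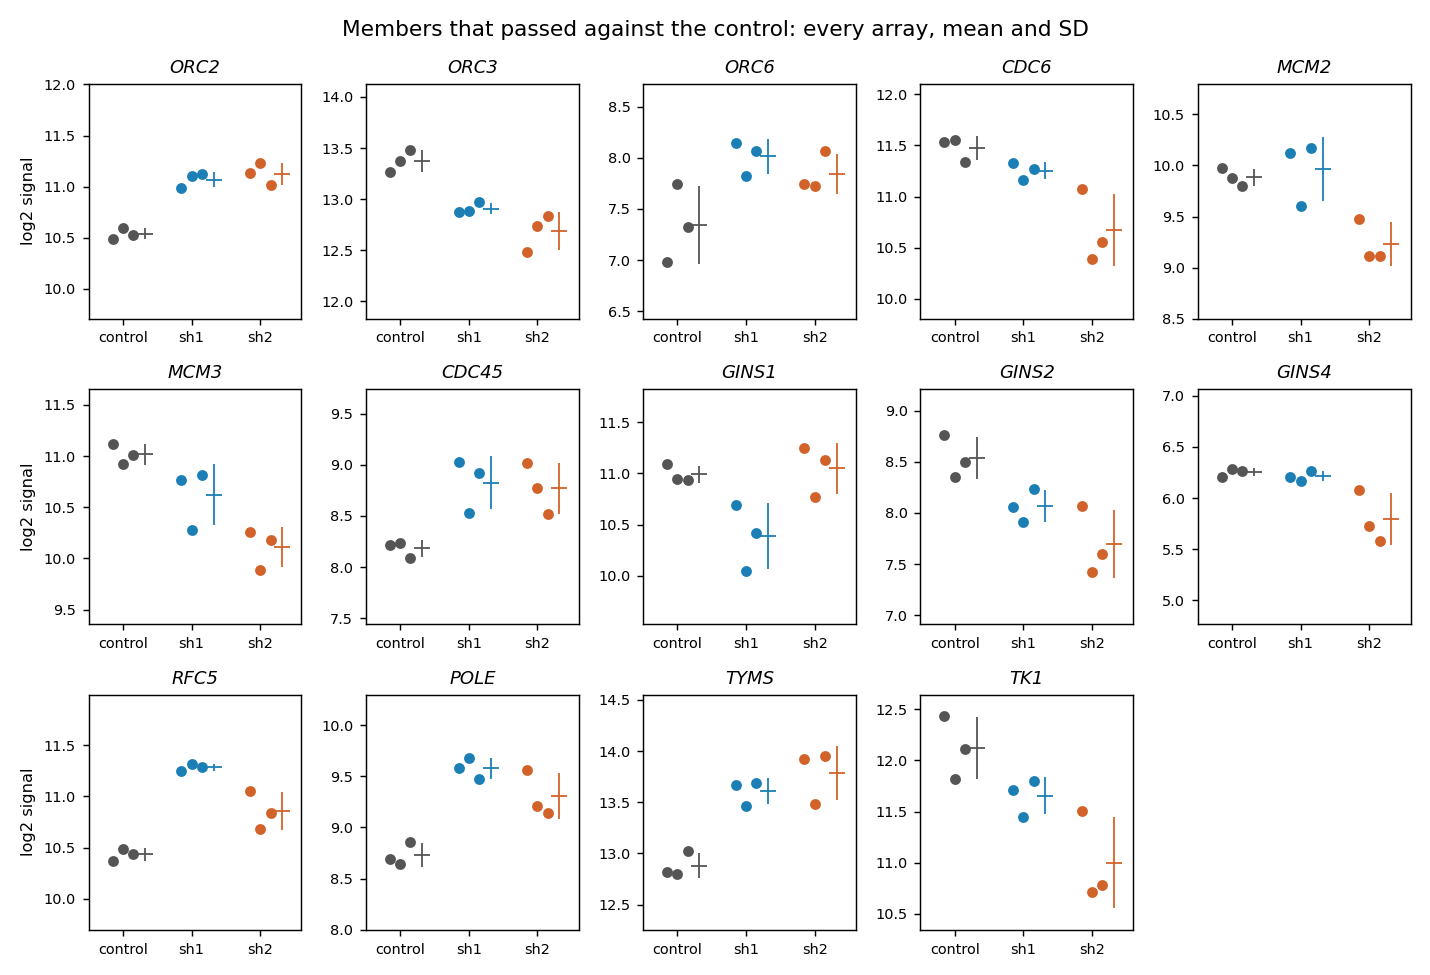
Log2 signal of the 14 members that passed against the control in at least 1 line, with a point for each of the 3 arrays of control (grey), sh1 (blue) and sh2 (orange) and the mean with its SD beside them. Each panel spans the same number of log2 units, and for RFC5, POLE, TYMS, CDC45 and ORC2 all knockdown arrays lie above all control arrays.

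At the fork, the small clamp-loader subunit RFC5 and the catalytic subunit of polymerase epsilon, POLE, which copies the leading strand, rose in both lines. RFC5 read 10.37, 10.49 and 10.44 in the control, 11.25, 11.32 and 11.29 in sh1 and 11.05, 10.68 and 10.84 in sh2. The sh1 arrays were the highest and the sh2 arrays lay between sh1 and the control. RFC5 changed by 0.85 ± 0.13 (SE) in sh1 (adjusted p = 0.000632), the lowest adjusted p of any member in that line, and by 0.42 ± 0.13 (SE) in sh2 (adjusted p = 0.043). The sh2 call was lost without control array 1, 2 or 3, sh1 array 1 or 3 or sh2 array 1 or 3 (0.33 to 0.45, adjusted p = 0.0598 to 0.135). POLE read 8.69, 8.64 and 8.86 in the control, 9.58, 9.68 and 9.47 in sh1 and 9.56, 9.21 and 9.14 in sh2. Both lines lay above the control, and they overlapped each other. It changed by 0.85 ± 0.14 (SE) in sh1 (adjusted p = 0.00146), against 0.57 ± 0.14 (SE) in sh2 (adjusted p = 0.0175), and the sh2 call was lost without control array 1 or 2 or sh2 array 1 (0.45 to 0.55, adjusted p = 0.0591 to 0.0657). PCNA, the clamp that holds polymerases on DNA, read 12.45, 12.51 and 12.63 in the control, 13.12, 12.84 and 12.91 in sh1 and 12.44, 12.25 and 12.67 in sh2. All sh1 arrays exceeded the control, and the sh2 arrays overlapped it. PCNA differed by 0.43 ± 0.14 (SE) in sh1 (adjusted p = 0.0604), against -0.08 ± 0.14 (SE) in sh2 (adjusted p = 0.795). RFC1 to RFC4 passed in neither line, with differences from -0.14 to 0.42. The 3 subunits of replication protein A, which coats single-stranded DNA, and the 4 of polymerase alpha-primase did not pass either, with -0.53 to 0.23 and -0.40 to 0.37. By limma that is 0 of 7 in each line. At an unadjusted p under 0.05 it is 3 of 7 in sh1 and 2 of 7 in sh2, against 29.8% and 27.8% of all rows. Among the polymerase delta subunits and POLE2, differences ran from -0.23 to 0.40. FEN1, which trims the flaps of Okazaki fragments, differed by -0.04 and -0.38 (adjusted p = 0.879 and 0.0607). LIG1, the ligase that seals them, had a mean next to the lower quartile of rows and differed by 0.02 and 0.03. UHRF1, which guides maintenance methylation to new DNA, differed by -0.19 and -0.48 (adjusted p = 0.48 and 0.0629).

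Both routes to thymidylate were measured, and they moved oppositely in sh2. TYMS, thymidylate synthase, makes dTMP from dUMP and rose in both lines, while TK1, the thymidine kinase that salvages thymidine, fell in sh2. TYMS read 12.82, 12.80 and 13.02 in the control, 13.67, 13.46 and 13.69 in sh1 and 13.92, 13.48 and 13.95 in sh2. The lowest knockdown array lay above the highest control array. The TYMS change was 0.73 ± 0.15 (SE) in sh1 (adjusted p = 0.00592), against 0.90 ± 0.15 (SE) in sh2 (adjusted p = 0.00182). TK1 read 12.43, 11.82 and 12.11 in the control, 11.71, 11.45 and 11.80 in sh1 and 11.51, 10.71 and 10.78 in sh2. The control was the highest group, and sh2 arrays 2 and 3 were the lowest of all. TK1 changed by -1.12 ± 0.22 (SE) in sh2 (adjusted p = 0.00493), a 2.17-fold lower signal, and differed by -0.47 ± 0.22 (SE) in sh1 (adjusted p = 0.189), where no sh1 array reached the control arrays.

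Several members lie among chromosomal neighbours that differed in the same direction, so each member was also set against the 40 nearest expressed genes on its chromosome. MCM3 on chromosome 6 had neighbours, from DNPH1 to PRIM2, with a median difference of -0.82 in sh1 and -0.74 in sh2, and 38 and 36 of these 40 genes were lower. Relative to them, MCM3 differed by -0.20 (adjusted p = 0.43) in sh2, which no longer passed. In sh1, where MCM3 was not called, its lower mean turned to 0.43 relative to them (adjusted p = 0.0793). On chromosome 12, the neighbours of RFC5 had medians of 0.37 and 0.31, and those of POLE 0.43 and 0.21. RFC5 kept its call in sh1, at 0.46 (adjusted p = 0.0215), and lost it in sh2, at 0.16 (adjusted p = 0.435). POLE lost its calls in both lines, at 0.41 (adjusted p = 0.0713) in sh1 and 0.26 (adjusted p = 0.259) in sh2. ORC2 on chromosome 2 had neighbours at 0.29 and 0.26 and did not pass relative to them, at 0.33 (adjusted p = 0.0973) and 0.35 (adjusted p = 0.0839). ORC3 did not pass in sh1, at -0.31 (adjusted p = 0.0991), and GINS4 did not pass in sh2, at -0.45 (adjusted p = 0.0517). The neighbours of GINS4 had a median of -0.02 in sh2, and its value stayed close to the uncorrected -0.46. ORC3 in sh2 and ORC6 in sh1 kept their calls, at -0.52 (adjusted p = 0.0111) and 0.79 (adjusted p = 0.012). Neither line thus kept calls in both directions within the origin recognition complex. TK1 on chromosome 17 kept its call in sh2 at a smaller size, -0.68 (adjusted p = 0.0329), next to neighbours at -0.44. In sh1, next to neighbours at -0.42, TK1 stood at -0.02 (adjusted p = 0.967). For TYMS the values stayed close to the uncorrected ones, at 0.66 (adjusted p = 0.00921) in sh1 and 0.85 (adjusted p = 0.00218) in sh2. For CDC6 and GINS2 in sh2 they were -0.67 (adjusted p = 0.014) and -0.70 (adjusted p = 0.0144). MCM10 on chromosome 10 differed by -0.29 in sh1 while its neighbours had a median of -0.93, with 39 of 40 lower, and relative to them it stood at 0.70 (adjusted p = 0.0619). The mean of MCM10, like that of CDT1, lay under the median of row means, while expressed neighbours were rows above that median. What this difference in brightness does to the relative values was not tested. In sh1, 4 members passed after this correction and not before it, at 0.64 (adjusted p = 0.0349) for CDT1, 0.47 (adjusted p = 0.0442) for RFC4, -0.53 (adjusted p = 0.0404) for RPA2 and -0.71 (adjusted p = 0.0149) for RPA3. After it 9 members passed in sh1 and 7 in sh2, against 20.5% and 17.1% of the 17684 rows with a position.

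**Figure D4:**
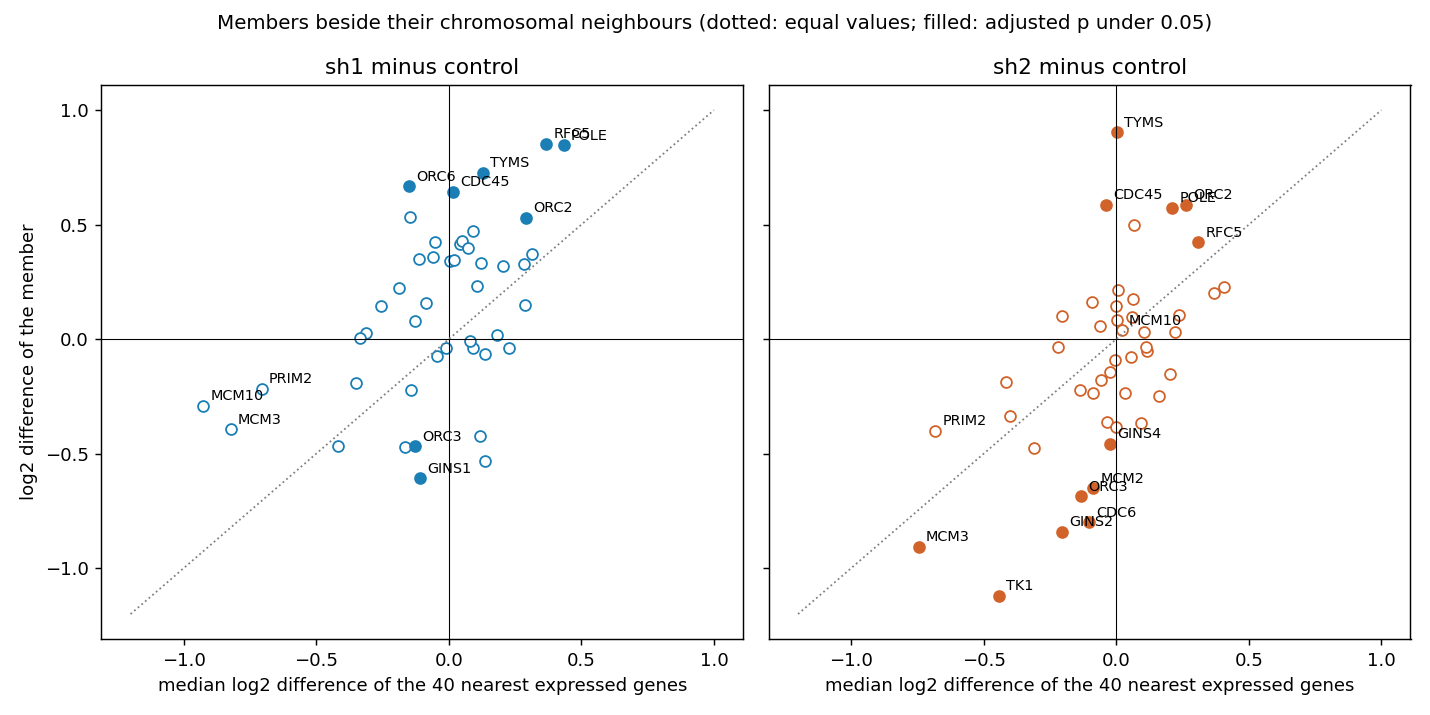
Each member's log2 difference from the control (vertical axis) against the median log2 difference of its 40 nearest expressed neighbours (horizontal axis) in sh1 and sh2, with filled points for an adjusted p under 0.05 and a dotted line of equal values. MCM3 in sh2 lies near the line at -0.91 beside neighbours at -0.74, while TYMS in sh2 stands at 0.90 beside neighbours at 0.0.

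The comparison of sh2 with sh1 asks whether the knockdown lines differ from each other, and here most replication genes were lower in sh2. As means, 38 of 46 members were lower in sh2 than in sh1, with a median of -0.26, where 50.6% of all rows were lower and their median was -0.01. Of the members, 5 were called lower (CDC6, MCM2, MCM4, MCM6 and PCNA) and 2 higher (GINS1 and RPA3), which is 15.2% against 11.3% of all rows, or 5.57% lower and 5.73% higher. None passed with a change of at least 2-fold, against 3.52% of all rows (limma). At an unadjusted p under 0.05 there were 16 members, against 23.4% of all rows. Without the rows under the lower quartile, 9 members were called, against 16.6% of rows. None of the 7 calls held in every fit with 1 array left out. The number of calls fell to 4 without control array 1, to 4 without control array 3, to 2 without sh1 array 1, to 4 without sh1 array 2 and to 1 without sh2 array 2. Without sh1 array 3 it was 0 by limma, where 16 members had an unadjusted p under 0.05. What share of all rows passed in these leave-out fits is not given here. All 6 MCM subunits had a lower mean in sh2 than in sh1. MCM2 differed by -0.73 ± 0.17 (SE) (adjusted p = 0.0173), MCM4 by -0.65 ± 0.16 (SE) (adjusted p = 0.0207) and MCM6 by -0.55 ± 0.16 (SE) (adjusted p = 0.0475), with no overlap of the lines. MCM3, MCM5 and MCM7 did not pass, at -0.51, -0.52 and -0.21 (adjusted p = 0.075, 0.0543 and 0.385). The MCM2 call was lost without sh1 array 1 or 3 or sh2 array 2 or 3 (-0.67 to -0.63, adjusted p = 0.0638 to 0.0731), the MCM4 call without sh1 array 1 or 3 or sh2 array 2 (-0.60 to -0.53, adjusted p = 0.074 to 0.0844), and the MCM6 call without control array 1, 2 or 3, sh1 array 1 or 3 or sh2 array 1 or 2 (-0.57 to -0.44, adjusted p = 0.0625 to 0.169). Relative to its neighbours MCM6 was at -0.39 (adjusted p = 0.15) and did not pass, while MCM3 at -0.63 (adjusted p = 0.021) and MCM5 at -0.58 (adjusted p = 0.0168) did. RFC3, POLA1 and TK1 also passed relative to neighbours and not without the correction, at -0.50 (adjusted p = 0.0349), -0.57 (adjusted p = 0.0411) and -0.66 (adjusted p = 0.0461), where 12.4% of rows with a position passed.

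The loading factor CDC6 stood at a between-line difference of -0.58 ± 0.17 (SE) (adjusted p = 0.0494), which was lost without control array 1, 2 or 3, sh1 array 1, 2 or 3 or sh2 array 2 or 3 (-0.63 to -0.44, adjusted p = 0.0631 to 0.176). PCNA differed by -0.50 ± 0.14 (SE) (adjusted p = 0.0428), lost without control array 1, 2 or 3, sh1 array 1, 2 or 3 or sh2 array 1 or 2 (-0.56 to -0.40, adjusted p = 0.054 to 0.158). The lowest sh1 array of PCNA was 12.84 and the highest sh2 array 12.67. GINS1 went the other way, at 0.66 ± 0.18 (SE) (adjusted p = 0.034), lost without sh1 array 2 or 3 or sh2 array 1 or 3 (0.49 to 0.68, adjusted p = 0.0795 to 0.111). RPA3, the small subunit of replication protein A, falls outside the naming rule and is given because it passed here. It read 10.15, 9.74 and 10.02 in the control, 9.78, 9.14 and 9.40 in sh1 and 10.36, 10.23 and 10 in sh2. The sh1 arrays were below the sh2 arrays and overlapped the control. Its difference between the lines was 0.76 ± 0.18 (SE) (adjusted p = 0.0191), lost without sh1 array 2 or 3 or sh2 array 1 or 2 (0.61 to 0.74, adjusted p = 0.0612 to 0.0706). On chromosome 7 the neighbours of RPA3 had a median of 0.14 in sh1 and 0.41 in sh2, and relative to them the difference was 0.46 (adjusted p = 0.124), which did not pass.

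**Figure D5:**
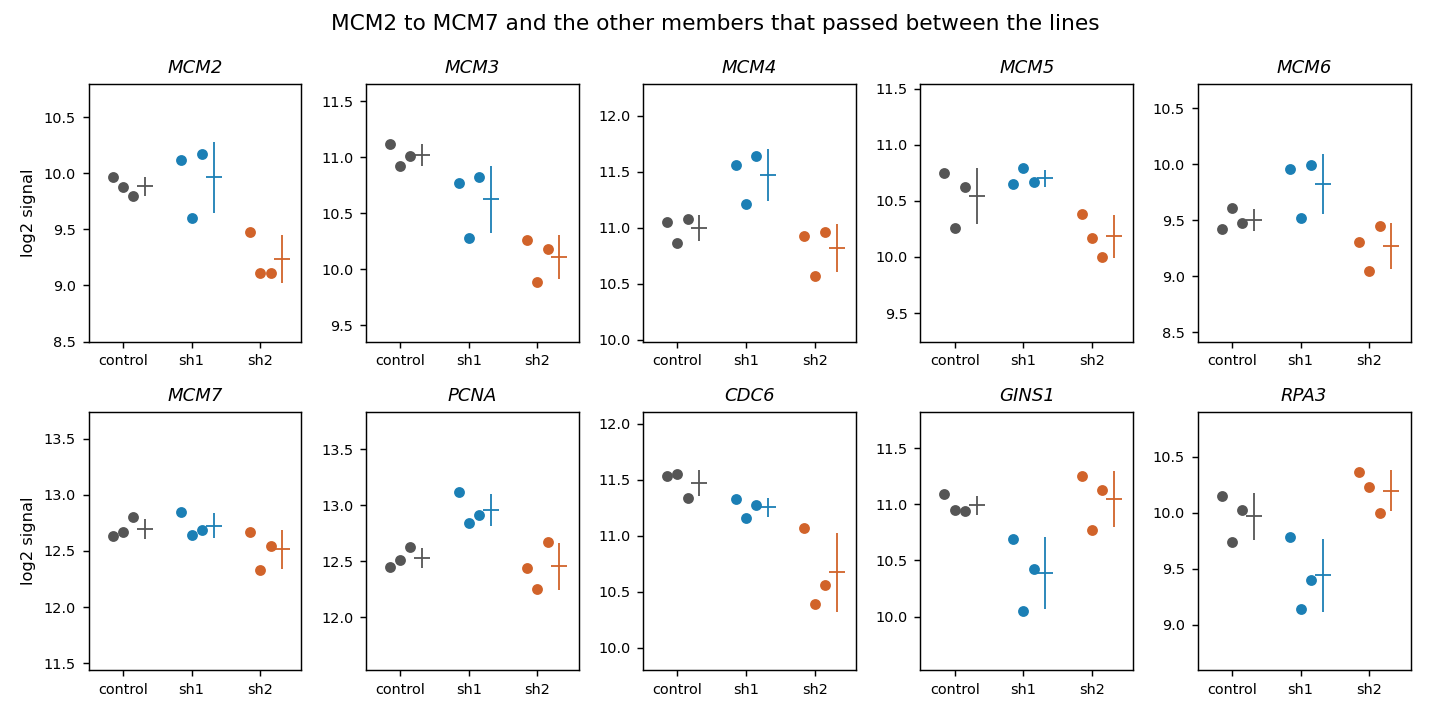
Log2 signal of MCM2 to MCM7, PCNA, CDC6, GINS1 and RPA3, with a point for each of the 3 arrays of control (grey), sh1 (blue) and sh2 (orange) and the mean with its SD beside them. The sh2 arrays lie below the sh1 arrays for MCM2 to MCM6, PCNA and CDC6 and above them for GINS1 and RPA3, while those of MCM7 overlap.

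Arrays of the same line also differed in their replication genes. In sh1, array 2 gave the lowest of the 3 signals for 30 of 46 members (65.2%), and in sh2 array 2 did so for 30 of 46 (65.2%). Of the rows brighter than the median of row means, 38.0% and 30.1% were lowest in those arrays. In the control, array 1 was the lowest for 21 members (45.7%, against 31.7% of the brighter rows) and array 2 for 15. The mean of MCM2 to MCM7 relative to the control mean was 0.05, -0.07 and 0.02 in control arrays 1, 2 and 3, 0.21, -0.10 and 0.22 in sh1 arrays 1, 2 and 3, and -0.27, -0.59 and -0.40 in sh2 arrays 1, 2 and 3. The sh2 arrays thus lay below the sh1 arrays, and array 2 was the lowest of each of the 3 groups. Without sh1 array 2, 9 members passed in sh1, all of them higher, and without sh2 array 2, 9 passed in sh2, of which 4 were higher and 5 lower. All-row shares for these fits are not given here. What set these arrays apart was not tested.

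Other genes of the pathway, which are not members, were counted in the same way, without correction for neighbours, and read against the same 18.8% and 16.3% of all rows. Among factors that license and fire origins, 4 of 15 measured genes passed as higher in sh1 and 1 in sh2, with 1 and 0 lower (medians 0.18 and -0.04). CDK2, the S-phase kinase, changed by 0.61 and 0.65 (adjusted p = 0.0138 and 0.0122). TICRR, which brings CDC45 to origins, differed by 0.66 and -0.21 (adjusted p = 0.00516 and 0.355), WDHD1, a fork scaffold, by 0.64 and 0.12 (adjusted p = 0.00788 and 0.667), and the histone acetyltransferase KAT7 by -0.68 and -0.46 (adjusted p = 0.00899 and 0.0678). In fork protection and the S-phase checkpoint, 5 of 15 measured genes passed as higher in sh1 and 1 in sh2, with 1 and 1 lower (medians 0.31 and -0.04). Between the lines, all 15 genes had a lower mean in sh2, where 50.6% of all rows did. Of these genes 3 passed, against 11.3% of all rows. This list was the most one-sided. The others ran from 6 of 11 lower (deoxynucleotide supply) to 9 of 11 (other replisome enzymes, and chromatin assembly). The fork protection pair TIMELESS and TIPIN differed by 0.86 and 0.74 (adjusted p = 0.00952 and 0.0241) and by 0.91 and 0.13 (adjusted p = 0.00268 and 0.679). The checkpoint clamp subunits RAD9A and RAD1 differed by 0.81 and 0.68 (adjusted p = 0.032 and 0.074) and by -0.58 and -0.66 (adjusted p = 0.00644 and 0.00334). Of other replisome and Okazaki fragment enzymes, 3 of 11 measured genes passed as higher in sh1 and 2 in sh2, with 2 and 3 lower (medians -0.04 and -0.20). POLD4, the smallest subunit of polymerase delta, differed by -0.99 and 0.02 (adjusted p = 0.000489 and 0.945). The nuclease DNA2 changed by 0.93 and 0.65 (adjusted p = 0.00218 and 0.0194), topoisomerase TOP1 by 0.46 and 0.76 (adjusted p = 0.0172 and 0.00103), and RNASEH2C differed by -0.45 and -0.69 (adjusted p = 0.145 and 0.0307).

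For deoxynucleotide supply, 2 of 11 measured genes passed as higher in sh1 and 1 in sh2, with 2 and 1 lower (medians 0.28 and 0.19). DUT, which makes dUMP for TYMS, differed by 0.95 and 0.19 (adjusted p = 0.000955 and 0.476), and CTPS1, which makes CTP, by 0.42 and 0.44 (adjusted p = 0.0302 and 0.0272). The nucleoside transporter SLC29A1 changed by -1.02 and -0.75 (adjusted p = 0.000133 and 0.0014), and the mitochondrial kinase TK2 differed by -0.74 and -0.29 (adjusted p = 0.00566 and 0.266). In chromatin assembly and maintenance methylation, 1 of 11 measured genes passed as higher in sh1 and 0 in sh2, with 0 and 0 lower (medians 0.31 and -0.16), and the 1 call was CHAF1B, a subunit of chromatin assembly factor 1, at 0.52 and -0.16 (adjusted p = 0.0204 and 0.515). In sh2, where no gene of this list was called by limma, 2 had an unadjusted p under 0.05, against 27.8% of all rows. Among E2F and RB regulators, 4 of 18 measured genes passed as higher in sh1 and 1 in sh2, with 1 and 0 lower (medians 0.255 and 0.05). E2F5 changed by 0.69 and 0.49 (adjusted p = 0.00433 and 0.0334), FOXM1 differed by 0.73 and 0.16 (adjusted p = 0.0323 and 0.7), MYBL2 by 0.64 and 0.12 (adjusted p = 0.0235 and 0.736) and MYC by -1.18 and -0.44 (adjusted p = 0.000696 and 0.127). Of ubiquitin ligase genes and partners that destroy licensing factors, 3 of 11 measured genes passed as higher in sh1 and 2 in sh2, with 3 and 1 lower (medians 0.27 and 0.09). KMT5A, a histone methyltransferase and a substrate of this route, changed by 1.14 and 0.90 (adjusted p = 5.6e-05 and 0.000424), the cullin CUL1 by 1.10 and 0.94 (adjusted p = 3.67e-05 and 0.000162) and its adaptor SKP1 by -0.52 and -0.68 (adjusted p = 0.013 and 0.00316), and the F-box protein SKP2 differed by -0.53 and -0.19 (adjusted p = 0.0339 and 0.502). Mitotic proliferation markers were measured beside the replication genes, and 5 of 12 measured genes passed as higher in sh1 and 3 in sh2, with 0 and 0 lower (medians 0.37 and 0.225). CCNB2, a mitotic cyclin, changed by 1.31 and 0.59 (adjusted p = 0.000264 and 0.0384), and AURKB by 0.75 and 0.75 (adjusted p = 0.00739 and 0.00847). PLK1 differed by 0.68 and 0.26 (adjusted p = 0.00536 and 0.277) and AURKA by 0.51 and 0.33 (adjusted p = 0.0107 and 0.083). MKI67 is given as a common proliferation marker although the naming rule does not name it, and it differed by 0.31 and 0.05 (adjusted p = 0.127 and 0.859).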

How the data were processed

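Total RNA (Nucleospin kit, 100 ng) was labelled with the WT Plus kit for 1-colour arrays, per the labels' protocols. The authors made the deposited log2 signals with Transcriptome Analysis Console, per the submitters' processing notes. The sources used here state neither its version nor its settings. The log2 scale was read from the values (2.03 to 18.57). Values were used as deposited. Gene symbols came from the platform annotation. Groups came from the sample titles.

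A model over all 21448 rows and 9 arrays was fitted with limma 3.58.1 in R 4.3.3, and p-values were adjusted by Benjamini-Hochberg over all rows. Members and gene lists were chosen with earlier results of these data known. Members named with every array are those called against the control and MCM2 to MCM7, PCNA, CDC6, CDT1 and GMNN. Up to 4 called genes were named per other list. For neighbours, the per-array median of the 40 nearest expressed genes was subtracted before refitting (RefSeq order, GRCh38.p14). Alternatives covered scaling, filter, prior, samples, replicate block, threshold, neighbours and leaving out each array. Protein sequences were not used here. List genes without a row of 1 symbol were not analysed here.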

Additional observations from a re-analysis of the deposited data

Results flagged for a closer look

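The sh2 and sh1 clones, and so their differences from the shared control, differed for 7 members. These were MCM2 (-0.73), MCM4 (-0.65), CDC6 (-0.58), MCM6 (-0.55) and PCNA (-0.50), which were lower in sh2, and RPA3 (0.76) and GINS1 (0.66), which were higher. All are log2 differences with an adjusted p under 0.05 (limma). These calls are 15.2% of the 46 members, against 11.3% of all rows. The arrays of the lines did not overlap for these members, which were picked by a low p. That also held for members that were not called, among them MCM3, MCM5 and GINS4. The share of all rows without overlap is not given here, so the lack of overlap adds nothing to the calls. None of these 7 calls held in every fit with 1 array left out. With 3 arrays in a group no array was tested as an outlier.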

How the results depend on the processing

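Of the 18 alternatives, 6 (both thresholds, the filter, the prior, the block and the arrays fitted) cannot change the sign of a log2 difference. Under the other 12 no called member value changed sign. Among these, a fit without an array of the group not compared could not change it, as it leaves that difference as it was. Of the 27 calls over the 3 comparisons, 10 were lost after subtracting neighbours, 4 under quantile normalization, 3 with arrays shifted to a common median, 6 with only the arrays compared, 3 under the block and 1 under the trended robust prior. Leaving out 1 array at a time gave 4 to 10 members called in sh1, 7 to 11 in sh2 and 0 to 7 between the lines, with medians of 0.0717 to 0.2275, -0.1417 to -0.0133 and -0.3525 to -0.2042. Without sh1 array 1 the sh1 median was 0.0717, and without sh1 array 2 it was 0.2275. A trended robust prior gave 13 calls in sh1 and 11 between the lines. Fitting only the arrays compared gave 3 calls between the lines. In sh1, sh2 and between the lines, 4, 7 and 0 members were called at an adjusted p under 0.01 (limma). With a change of at least 2-fold there were 0, 1 and 0 calls, against 5.59%, 4.50% and 3.52% of all rows. At an unadjusted p under 0.05 by limma there were 21, 19 and 16 members, against 29.8%, 27.8% and 23.4% of all rows. Subtracting neighbours gave 7 calls in sh2, against 17.1% of rows with a position, and a median of 0.273 in sh1. The array number as a replicate block gave 11, 10 and 9 calls. The shares of all rows called are not given here for the leave-out fits, the prior, the block, the arrays compared and the stricter threshold. Numbers pair nothing by the labels, same-number deviations correlated at -0.0358 to 0.180 with 2 of 9 pairs over 0.1, and 3 of 9 arrays correlated best with their own number. As each member has 1 row, another row per gene could not be tried. The number of arrays and dim signals, as for LIG1 and CDT1, limit what could be detected.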
